A study of Mus musculus with 10 samples.

Results

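The genes described here act in signalling by bone morphogenetic proteins (BMPs) and Nodal, or are direct targets of it. They are 10 genes chosen by name, Id1, Id2, Id3, Bmp4, Smad7, Tgif1, Lefty1, Lefty2, Nodal and Tdgf1, of 21631 protein-coding genes on the 20 chromosomes that held peaks. HA-tagged SOX2 and SOX15, related transcription factors with an HMG box, were mapped on the chromatin of mouse embryonic stem cells by chromatin immunoprecipitation and sequencing (ChIP-seq). A peak was counted for a gene when its summit, the base of highest signal, lay no more than 50 kb from the gene body. The groups were SOX2-HA with 2 libraries and SOX15-HA with 3 libraries, each tag carried by a knock-in at the factor's own locus. Every culture was grown in 2i/LIF and fixed with 1% formaldehyde, and the 5 input libraries were not analysed here. Strain, sex and the number of knock-in clones are not given in the sources used here, and neither is whether replicates came from separate cultures, so the spread between them may be technical. The lists measure no expression, so the cell type could not be checked against its markers.

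BMP ligands bind serine/threonine kinase receptors that phosphorylate SMAD1, SMAD5 and SMAD9, and Nodal does the same for SMAD2 and SMAD3 through receptors that need the co-receptor CRIPTO, encoded by Tdgf1. Both branches join SMAD4, enter the nucleus and switch on feedback inhibitors such as Smad7 and the Lefty genes. In mouse embryonic stem cells BMP4, supplied by serum, works with LIF through the Id genes to hold back neural differentiation, and 2i medium supports self-renewal without added BMP.

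SOX2 peaks lay near more of these genes than SOX15 peaks did, and the same held over all protein-coding genes. Of all those genes, 15.5% and 24.9% had a summit within 50 kb in SOX2 replicates 1 and 2. The shares were 2.29%, 5.78% and 4.26% in SOX15 replicates 1, 2 and 3. SOX2 peaks lay near Id3, Smad7, Tgif1, Lefty1 and Lefty2 in both libraries and near Id1 in replicate 2, and no SOX2 peak lay near Id2, Bmp4, Nodal or Tdgf1. The SOX15 libraries held a single peak near any of the 10 genes, 26.1 kb from Bmp4 in replicate 3. The 5 lists held 18 such peaks in all. SOX2 replicate 1 contributed 7 of them, SOX2 replicate 2 gave 10, SOX15 replicate 3 gave 1, and the other SOX15 libraries gave 0.

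**Figure D1:**
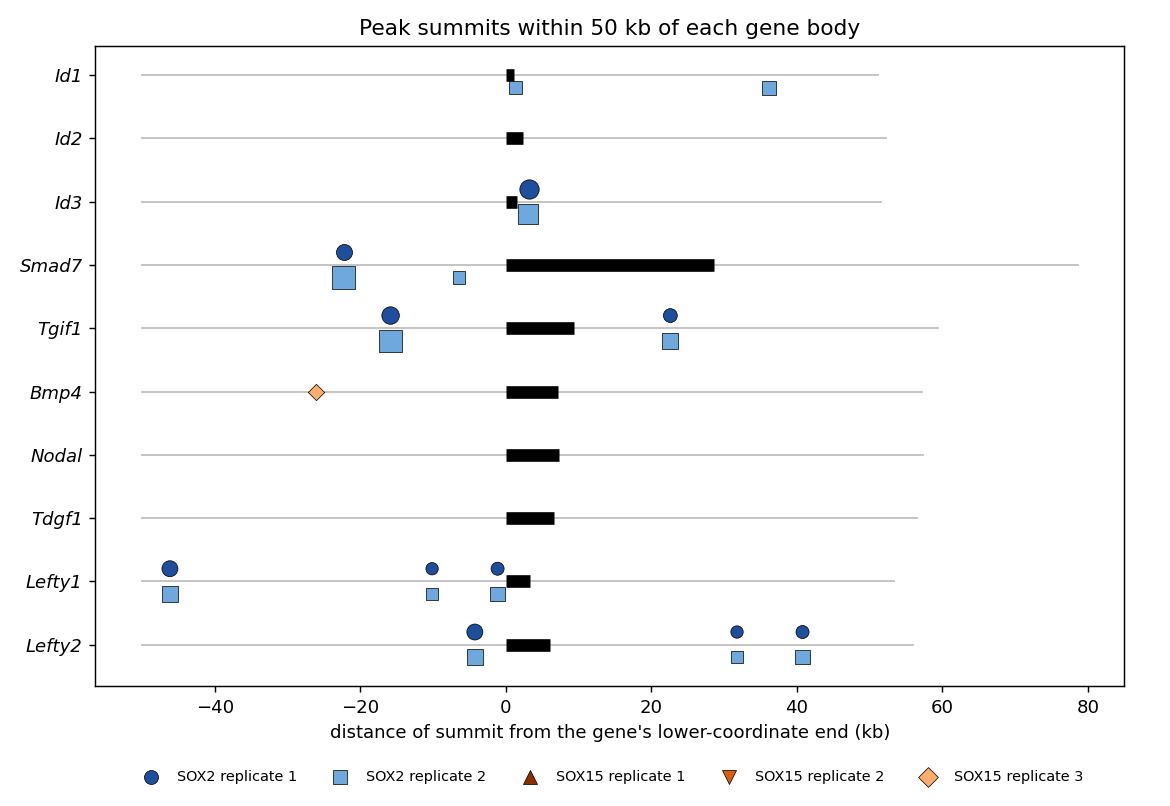
Summits within 50 kb of each of the 10 gene bodies, on a scale in kb from the end of the gene with the lower coordinate. Black bars are gene bodies, grey lines the window of 50 kb on either side, and the area of a symbol grows with the deposited fold enrichment. SOX2 symbols of replicate 1 (above the line) and replicate 2 (below it) fall together at 7 regions, and Bmp4 has the single SOX15 symbol. Lefty1 and Lefty2 share their 3 regions, so each appears on both rows.

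No peak of the 5 lists overlapped a promoter of these genes for which a sequence was at hand. The share of all promoters that a peak overlaps was not counted, so this does not set these genes apart from others. RefSeq promoter sequences (build GRCm38.p6, the same coordinates as mm10, 250 bases before a start to 50 from it on) were found for 6 of the 10 genes, in 10 windows, 5 of which belong to Tgif1. Id1, Smad7, Lefty1 and Lefty2 had no entry. They include the genes closest to a SOX2 summit, Id1 (0.146 kb, replicate 2) and Lefty1 (1.14 kb in both SOX2 libraries). Among the 6 genes searched the closest summits lay past the 3′ end of Id3, so the lack of overlap follows from the distances given below. Each window was searched on both strands for ACAAT (the SOX core), ATGCAAAT (the octamer that OCT factors read), TTGTNATGC (a SOX site joined to an OCT site), GTCTAGAC (a SMAD box), GGCGCC (a GC-rich box of SMAD1 and SMAD5) and CACCC (a KLF box). A promoter of Tgif1, among its 5 windows, held the joined SOX and OCT site, as did 0.731% of the 32851 promoters in the table. That share is per window and takes no account of 10 windows having been searched. The promoter of Nodal held 1 SOX core, as did 31.0% of all promoters, and that of Id2 held 1 GC-rich SMAD box, as did 11.9%. These 3 windows are shown because they hold the motifs of SOX2 or of SMAD proteins. They belong to a gene with SOX2 regions nearby (Tgif1) and to genes with none (Nodal and Id2). Capitals mark the SOX core, the joined site or the GC-rich box on either strand.
Tgif1 promoter, minus strand, chr17:70851685-70851984: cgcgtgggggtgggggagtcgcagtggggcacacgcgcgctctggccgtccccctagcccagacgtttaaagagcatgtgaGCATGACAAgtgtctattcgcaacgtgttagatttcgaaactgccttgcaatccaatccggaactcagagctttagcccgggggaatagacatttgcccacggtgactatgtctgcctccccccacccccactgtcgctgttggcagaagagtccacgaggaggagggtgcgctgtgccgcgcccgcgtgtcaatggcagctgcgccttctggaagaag
Nodal promoter, plus strand, chr10:61417722-61418021: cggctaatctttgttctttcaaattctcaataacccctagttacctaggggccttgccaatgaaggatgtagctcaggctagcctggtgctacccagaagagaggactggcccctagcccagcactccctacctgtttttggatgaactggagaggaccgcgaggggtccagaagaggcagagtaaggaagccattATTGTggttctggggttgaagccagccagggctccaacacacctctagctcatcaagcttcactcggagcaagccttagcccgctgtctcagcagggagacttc
Id2 promoter, minus strand, chr12:25096043-25096342: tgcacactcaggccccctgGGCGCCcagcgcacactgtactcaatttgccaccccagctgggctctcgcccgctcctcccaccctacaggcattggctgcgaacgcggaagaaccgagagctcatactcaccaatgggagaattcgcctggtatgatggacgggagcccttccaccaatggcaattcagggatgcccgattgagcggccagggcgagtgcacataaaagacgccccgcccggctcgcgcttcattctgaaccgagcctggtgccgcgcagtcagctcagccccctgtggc

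Another Tgif1 window, chr17:70846728-70847027, held 1 SOX core. The remaining windows, those of Id3, Tdgf1 and Bmp4 and 3 of Tgif1, held no SOX core and no joined site, and none of the 10 windows held the octamer or the SMAD box, which 1.74% and 0.213% of all promoters hold. The KLF box, present in 57.5% of all promoters, was found in Id3, Id2 and 3 of the Tgif1 windows. A match describes letters in a window and is not a site of binding.

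Among the ligands, neither gene had a SOX2 peak. Bmp4, which encodes the BMP ligand of early mouse development (chromosome 14, 46383525 to 46390669), had a SOX15 peak of replicate 3 at 46357369 to 46357757 with a fold enrichment of 5.75 and a −log10 q of 5.11. That peak lay 26.1 kb beyond the 3′ end of the gene. Its fold stood at the 35.2nd percentile of its own list, counted from the lowest, or at place 282 of 437 from the top. SOX15 replicates 1 and 2 had no summit closer than 2196 kb to it, and the nearest SOX2 summit was 134 kb away in either SOX2 library. Nodal, the ligand of the SMAD2 and SMAD3 branch (chromosome 10, 61417972 to 61425338), had its nearest SOX2 summit at 404 kb in replicate 1 and at 102 kb in replicate 2, and its nearest SOX15 summits at 19758, 522 and 5544 kb in replicates 1, 2 and 3.

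Tdgf1, the gene of the Nodal co-receptor (chromosome 9, 110939608 to 110946158), had no peak within the window either. Its nearest SOX2 summits lay 541 and 404 kb away in replicates 1 and 2. The nearest SOX15 summit, of replicate 2 with a fold of 4.77, lay 99.6 kb away, closer than either SOX2 summit but nearest to another gene, Prss45.

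The feedback inhibitors Lefty1, Lefty2 and Smad7 had SOX2 peaks in both libraries, as did Tgif1 and Id3. Lefty1 and Lefty2 encode secreted antagonists of Nodal and lie 35.9 kb apart on chromosome 1, Lefty2 at 180893108 to 180899107 and Lefty1 at 180935022 to 180938401. A SOX2 region is given here as reproducible when peaks of both libraries overlapped by at least 1 bp, and 3 such regions lay within 50 kb of both Lefty genes, each called in SOX2 replicates 1 and 2 and in no SOX15 library. The first (180888644 to 180889098) had folds of 13.2 and 12.8 in SOX2 replicates 1 and 2, at the 81.4th and 79.1st percentiles of the lists, with its summits 4266 and 4267 bp below Lefty2, that is, toward lower coordinates. The second (180924722 to 180925052) had folds of 6.95 and 6.72 and lay 10.1 and 10.2 kb below Lefty1. The third (180933721 to 180934042) had folds of 7.99 and 10.1 and lay 1141 and 1143 bp below Lefty1. The region next to Lefty2 was thus the strongest of the cluster in both libraries, and the second was the weakest. The second and the third lay inside Gm39715, annotated as a long noncoding RNA gene, and the first in no annotated gene. Of all protein-coding genes 0.707% had 3 or more reproducible SOX2 regions within 50 kb, and 2.81% had 2 or more. Each of the 3 regions had 4 protein-coding genes within 50 kb, the Lefty genes among them. With the nearest gene alone Lefty1 kept 2 regions and Lefty2 kept 1, and within 10 kb each kept 1. SOX15 summits nearest to the Lefty genes were 112 kb from Lefty2 in replicate 2 and 125 kb in replicate 3.

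Smad7 encodes an inhibitory SMAD that blocks type I receptors of the BMP and TGF-beta families (chromosome 18, 75367365 to 75395935). SOX2 peaks of both libraries lay 22.3 kb below it (75344784 to 75345552), with summits 1 bp apart, folds of 13.3 and 29.8 and −log10 q values of 41.0 and 106 in replicates 1 and 2. These folds stood at the 81.5th and 98.0th percentiles. The Smad7 peak held place 495 of 2676 in replicate 1 and place 97 of 4817 in replicate 2, so replicate 2 ranked it higher. The peaks were 698 and 769 bp wide, against list medians of 304 and 331 bp. Replicate 2 had a further peak 6.43 kb below Smad7, inside the long noncoding RNA gene Gm20544, with a fold of 6.92 at the 31.2nd percentile. No SOX15 library had a summit within 50 kb of Smad7. The nearest were at 118 kb in replicate 2 and 116 kb in replicate 3.

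Tgif1 encodes a homeodomain corepressor of SMAD2 and SMAD3 (chromosome 17, 70844205 to 70853532, minus strand). SOX2 peaks of both libraries lay on either side of it. The region past the 3′ end (70828122 to 70829006) had folds of 16.4 and 28.2 in SOX2 replicates 1 and 2, at the 88.6th and 97.4th percentiles, and its summits were 15.8 kb from the gene. Those summits were closer to Dlgap1, which encodes a scaffold protein of synapses, at 6943 and 6952 bp. The region upstream of the gene (70866457 to 70867011) had folds of 9.39 and 14.3, at the 60.5th and 83.4th percentiles, and lay 13.3 and 13.2 kb from it. The stronger region was thus the one nearer to Dlgap1 in both libraries. The SOX15 libraries had no summit within the window. SOX15 replicate 3 had a peak with a fold of 6.66 at 63.2 kb from Tgif1, 49.95 kb from the upstream SOX2 summit and nearest to Myl12b.

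The Id genes, targets of BMP signalling that encode inhibitors of basic helix-loop-helix factors, differed among themselves. Id3 (chromosome 4, 136143822 to 136145392, plus strand) had SOX2 peaks in both libraries just past its 3′ end, in the region 136146686 to 136147194. The folds were 20.5 and 23.5 in SOX2 replicates 1 and 2, the −log10 q values 64.8 and 88.9, and the summits lay 1569 and 1533 bp from the gene. This was the region near these genes with the highest mean percentile of fold over both libraries, at the 93.7th and 95.4th percentiles. Id1 (chromosome 2, 152736251 to 152737410) had peaks in SOX2 replicate 2 alone. The first had its summit 146 bp from the gene with a fold of 8.06, and the second lay 35.0 kb away inside Bcl2l1, which encodes an inhibitor of apoptosis, with a fold of 8.97. They stood at the 47.5th and 56.6th percentiles, and the nearest SOX2 replicate 1 summit was 431 kb from Id1, so neither peak was seen again. Id2 (chromosome 12, 25093799 to 25096092) was far from every peak: the nearest SOX2 summits were 5014 and 2837 kb away in replicates 1 and 2, and the nearest SOX15 summit was 7932 kb away in replicate 2. SOX15 summits nearest to Id3 were at 3874, 669 and 2866 kb in replicates 1, 2 and 3.

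**Figure D2:**
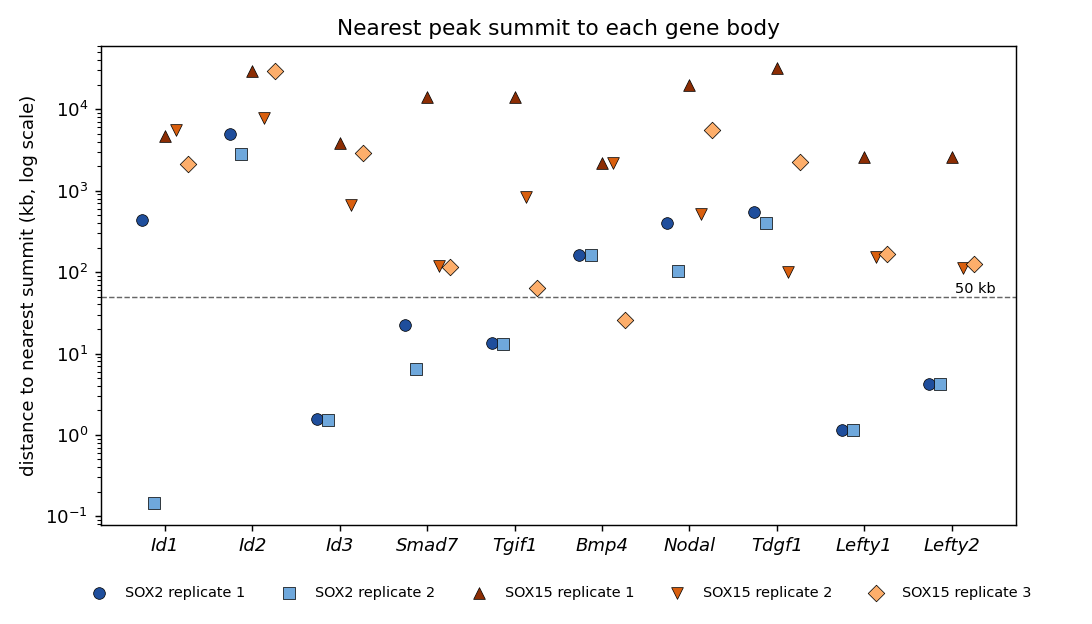
Distance from each gene body to the nearest summit of each library, in kb on a log scale, with the window of 50 kb as a dashed line. Both SOX2 symbols lie under the line at Id3, Smad7, Tgif1, Lefty1 and Lefty2, the replicate 2 symbol at Id1, and of the SOX15 symbols that of replicate 3 at Bmp4.

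The number of genes with a peak was 5 and 6 of 10 in SOX2 replicates 1 and 2, against 0, 0 and 1 of 10 in SOX15 replicates 1, 2 and 3. Of all protein-coding genes 15.5% and 24.9% had a summit within 50 kb in the SOX2 libraries, against 2.29%, 5.78% and 4.26% in the SOX15 libraries. Lefty1 and Lefty2 were both counted in each SOX2 library, from the same peaks. The means were 5.5 ± 0.71 genes (SD, n = 2) for SOX2 and 0.33 ± 0.58 genes (SD, n = 3) for SOX15. The difference was 5.17 genes, and the groups did not overlap, nor did their shares of all genes. No p is given for these counts, since the genes were chosen with results of these data known, and 2 against 3 libraries cannot give an exact permutation p below 0.1. List length moves with this difference: the SOX2 lists held 2676 and 4817 peaks and the SOX15 lists 217, 672 and 437. With each list held to its 217 peaks of highest fold, the counts were 1 and 2 genes for SOX2 and 0, 0 and 0 for SOX15, a difference of 1.5 genes, where 1.47% and 1.65% of all genes had a peak in the SOX2 lists and 2.29%, 2.27% and 2.39% in the SOX15 lists.

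**Figure D3:**
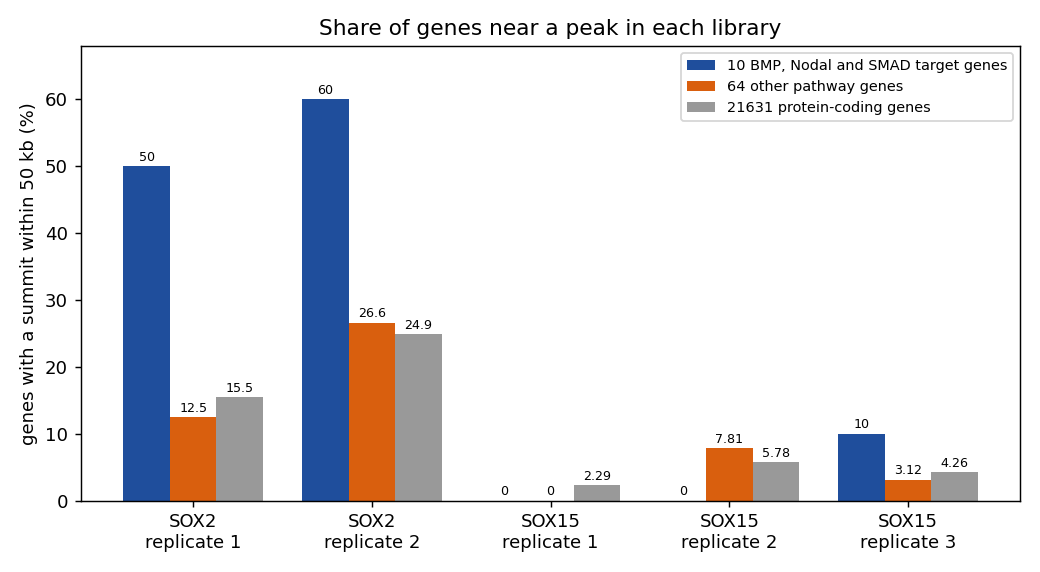
Percentage of genes with a summit within 50 kb of the gene body in each library, for the 10 genes described here, 64 other genes of the same pathways and 21631 protein-coding genes. In both SOX2 libraries the share of the 10 genes, 50% and 60%, stands above the other bars; 1 gene of the 10 is 10%.

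Counted by reproducible regions, 5 of the 10 genes had a SOX2 region (14.2% of all protein-coding genes) and 0 had a SOX15 region, defined as peaks in at least 2 of the 3 libraries (2.26% of all). A peak of any SOX15 library was found at 1 gene (8.11% of all). Because Lefty1 and Lefty2 share their regions, the 5 genes stand for 4 separate loci. The bodies of the 10 genes are short, with a median of 6276 bp against 17329 bp over all genes, so the window around them was narrower than around most genes.

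The 7 reproducible SOX2 regions near these genes ran from the 29.2nd to the 94.5th percentile of fold, averaged over both SOX2 libraries. Ranked by mean percentile of fold among 2369 reproducible SOX2 regions, Id3 held place 165, the Tgif1 region past the 3′ end 200, Smad7 281, the region next to Lefty2 586, the upstream Tgif1 region 826, and those below Lefty1 1322 and 2079. Their median mean percentile was 80.2, against 59.7 over all 2369. Folds of the 2 lists are not on 1 scale, and replicate 2 gave the higher one at 5 of the 7, as at 70.3% of all regions. The log2 ratio of replicate 2 to replicate 1 ran from -0.05 at the weakest Lefty region to 1.17 at Smad7, with a median of 0.33 against 0.29 over all. Summits of the paired peaks were 1 to 40 bp apart, with a median of 9 bp against 22 bp over all regions. None of the 7 summits lay inside a protein-coding gene, as 45.2% of all reproducible SOX2 regions did. All 7 SOX2 replicate 1 peaks near these genes overlapped a replicate 2 peak, as did 88.8% of that whole list, and 7 of 10 replicate 2 peaks overlapped replicate 1, as did 49.2%.

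**Figure D4:**
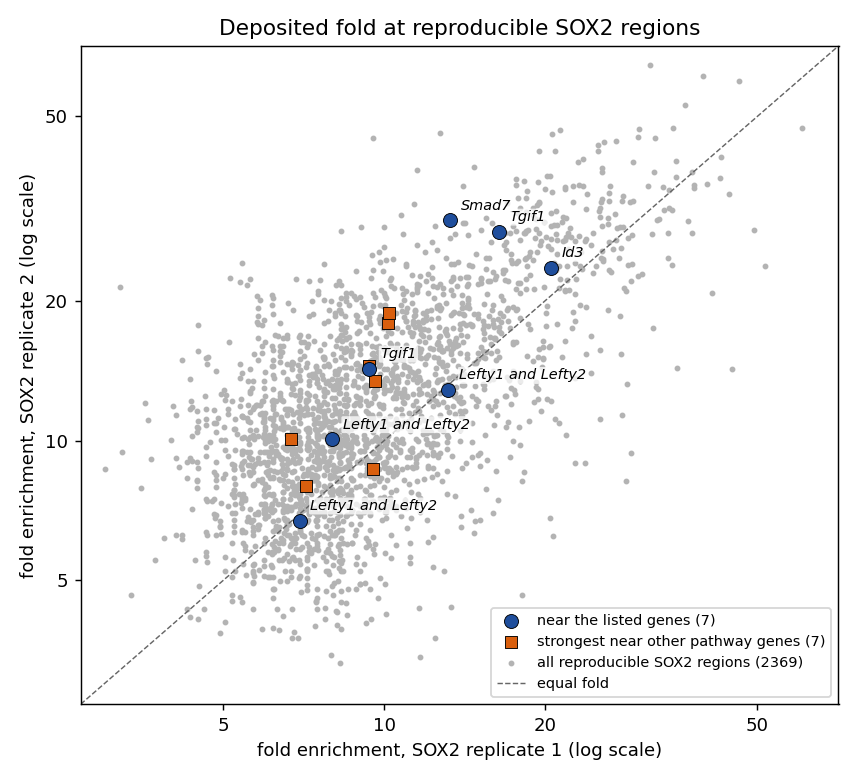
Deposited fold enrichment in SOX2 replicate 1 and replicate 2, both on log scales, for 2369 reproducible regions (grey), the 7 near the genes described here (blue circles) and the strongest near 8 other pathway genes (orange squares, 7 regions since Acvr1b and Acvrl1 share 1). Id3, Smad7 and a Tgif1 region lie toward the upper right, and 2 of the 3 Lefty regions lie close to the line of equal fold.

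The threshold of 50 kb was met closely by the region next to Lefty2, which lay 46.2 kb from Lefty1. Just outside it, a reproducible SOX2 region with folds of 8.30 and 16.9 in replicates 1 and 2 lay 54.5 kb from Id3 and nearest to Rpl11, a ribosomal protein gene. Another lay 69.2 kb from Smad7, with folds of 10.8 and 30.7, and nearest to Ctif. A window of 100 kb left the same 5 genes with a reproducible SOX2 region, where 22.3% of all genes had one. A window of 10 kb left Id3, Lefty1 and Lefty2, where 6.72% of all genes had one.

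Other genes of the BMP, Nodal, activin and TGF-beta pathways were near SOX2 regions at a share close to that of all genes. Of 64 such genes 8 had a reproducible SOX2 region, or 12.5% against 14.2% of all genes. By role these were 2 of 13 ligands, 3 of 14 receptors and co-receptors, 0 of 7 SMADs, 1 of 11 extracellular and membrane inhibitors, 0 of 8 nuclear cofactors and ubiquitin ligases, 1 of 2 proteases of ligands and 1 of 9 targets. A peak of SOX2 replicate 2 and none of replicate 1 was found at 9 further genes, or 14.1% of the 64, against 10.5% of all genes.

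The strongest SOX2 regions near those 8 genes stood between the 39.4th and the 79.5th percentile of fold, averaged over both libraries. Acvr1b, the gene of a type I receptor for activin and Nodal on chromosome 15, had a region inside its body (101181096 to 101181493) with folds of 10.2 and 18.8 in SOX2 replicates 1 and 2. Acvrl1, a type I receptor gene of the endothelium, was counted for the same region from 36.0 kb away. Gdf3, a Nodal-related ligand gene on chromosome 6, had 2 regions, the stronger 14.1 kb away with folds of 10.2 and 17.9 and nearest to Apobec1. Inhbb, which encodes a subunit of activin and inhibin, had 2 regions, the stronger 31.6 kb away with folds of 9.37 and 14.5 and nearest to Ralb. Near Msx2, a homeobox target of BMP signalling, the folds were 9.63 and 13.4 at 5.38 kb. At Bambi, a pseudoreceptor gene, they were 9.54 and 8.71 at 25.6 kb. Inside Tgfbr3, the gene of betaglycan, they were 6.7 and 10.1, and inside Pcsk6, a convertase gene, 7.13 and 7.99. The best-placed of these regions, at Acvr1b, ranked 601 of 2369, below the regions of Id3, Smad7 and Lefty2 and the stronger region of Tgif1.

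SOX15 peaks lay near 6 of the 64 other pathway genes (9.38%, against 8.11% of all genes), and none of them was in a second SOX15 library. Bmpr1a, a type I BMP receptor gene, had separate peaks in SOX15 replicates 2 and 3 at 45.3 and 32.2 kb, with folds of 5.53 and 6.89, nearest to Sncg and Mmrn2. Pmepa1, a target gene that dampens TGF-beta signalling, had a SOX15 replicate 2 peak inside its body with a fold of 4.73. Gdf1, a ligand gene of left-right patterning, Fstl3, whose product binds activin, and Dand5, whose product antagonises Nodal, were near SOX15 replicate 2 peaks with folds of 4.89, 5.79 and 3.28. Smurf2, which encodes a ubiquitin ligase acting on SMADs and receptors, was near a replicate 3 peak with a fold of 5.57. The peaks of these 4 genes were each nearest to another gene. No gene of the 64 had both a SOX15 peak and a reproducible SOX2 region within 50 kb. Few of the 64 had either (9.38% and 12.5%), and the share of all genes with both was not counted. The lack of a gene with both is thus not a result about these pathways. Bmpr1a had a SOX2 region just outside the window. A reproducible SOX2 region with folds of 17.0 and 32.6 in SOX2 replicates 1 and 2 lay 51.0 and 50.9 kb from Bmpr1a. The SOX15 peaks of replicates 2 and 3 counted for Bmpr1a lay 5.67 and 18.7 kb from a SOX2 summit. Those counted for Smurf2, Dand5, Fstl3, Gdf1 and Pmepa1 were farther, at 54.9, 190, 284, 356 and 668 kb.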

How the data were processed

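Peak lists of 5 ChIP-seq libraries were analysed, 2 for SOX2-HA and 3 for SOX15-HA, grouped and numbered by their titles. The submitters' processing notes name Bowtie2, MACS2, deepTools and the build mm10, and give no version, role or control. Each list belongs to 1 sample, so the authors called peaks per sample. The authors deposited, per peak, its fold enrichment (a ratio over background), −log10 p-values and −log10 q-values, an integer score equal to 10 times the −log10 q rounded down, and a summit offset. Folds are comparable within a list only, so percentile ranks of fold within a list were set beside them. The lists give no reads, so depth is unknown and weak binding can go uncalled. The smallest deposited −log10 q was 2.10 and 2.20 for SOX2 and 2.76, 2.03 and 1.31 for SOX15 replicates 1, 2 and 3.

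Gene bodies, without strand, came from RefSeq on GRCm38.p6, and strand from its promoter table. Peaks of a factor were joined where they overlapped by 1 bp. The planned permutation p for the count per library is not given, because it is a score over chosen genes. The code was tested on simulated peaks. No genome sequence was used here, so the planned motif search ran on promoters, not on summits. The 10 genes and the list of 64 pathway genes were chosen with earlier results of these data known. Named genes were the 10, each pathway gene with a reproducible SOX2 region or a SOX15 peak, and the genes nearest to their peaks; Rpl11, Ctif, Myl12b and Prss45 were named after their values were seen. Python 3.11.15, numpy 2.4.6, pandas 2.3.3 and matplotlib 3.10.9 were used.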

Additional observations from a re-analysis of the deposited data

How the results depend on the processing

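The 5 genes with a reproducible SOX2 region numbered 3 within 10 kb (6.72% of all genes) and 5 within 100 kb (22.3%). They numbered 5 with the nearest gene alone (7.33% of all genes) and with a −log10 q of at least 5 (13.8%). An overlap of 50% of both peaks (13.7%) and summits within 200 bp (14.1%) also left 5. With each list held to the length of the shortest, by highest fold, none of the 10 genes had a reproducible SOX2 region. The share of all genes with such a region at that length is not given here. The 7 regions numbered 3 within 10 kb and 9 within 100 kb. The 8 other pathway genes (12.5% of 64, against 14.2% of all genes) numbered 4 within 10 kb (6.25% against 6.72%), 13 within 100 kb (20.3% against 22.3%) and 6 with the nearest gene alone (9.38% against 7.33%). No gene of the 10 had a reproducible SOX15 region under any window, threshold, overlap or left-out library, or with the nearest gene alone. Of all genes, 0.749% to 3.43% had one across these settings. Within 50 kb 1 gene, Bmp4, had a peak of any SOX15 library (8.11% of all genes). Within 100 kb the counts were 0, 1 and 2 genes in SOX15 replicates 1, 2 and 3 (3.5%, 9.17% and 6.65% of all genes). Within 10 kb they were 0, 0 and 0 (1.08%, 2.81% and 1.99%). With each library left out in turn, the difference in genes per library ran from 4.67 to 5.67, the genes with a SOX2 region from 5 to 6 and the other pathway genes from 8 to 17. The counts of 6 and 17 (26.6% of 64) came without SOX2 replicate 1, where a peak of 1 library sufficed and 24.9% of all genes had one. With the replicate number as a block, over numbers 1 and 2, the difference was 5.5 genes. The labels do not say what a number shares, and deviations of same-numbered libraries over all genes correlated at 0.01 and 0.03. With 2 SOX2 libraries, their deviations from the SOX2 mean mirror each other, so these values are not 2 separate checks. Depth is unknown and limits every statement that a peak is missing.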
